A study of Homo sapiens with 4 samples.

Results

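NF-kB is a family of dimeric transcription factors built from the products of NFKB1, NFKB2, RELA, RELB and REL, which share a DNA-binding Rel homology domain. NFKB1 and NFKB2 encode precursors that are trimmed to DNA-binding subunits without an activation domain, while RELA, RELB and REL encode subunits that activate transcription. IkB proteins bind these dimers. The products of NFKBIA, NFKBIB and NFKBIE hold them in the cytoplasm until the IkB kinase marks the inhibitor for degradation, and those of NFKBIZ and BCL3 act in the nucleus on dimers already bound to DNA. In monocytes the pathway is the main route from Toll-like receptors to cytokine genes, and several family genes, NFKBIA foremost, are themselves NF-kB targets.

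The family was read as these 10 genes by name, beside 19775 genes on the array that have a probe set of their own. The 10 were chosen with earlier results of these data known. All probe sets annotated to them were taken, 22 of 54675, whatever their values. Of these, 20 name 1 gene of the family alone and cover 9 genes. The other 2 name BCL3 together with the microRNA gene MIR8085, which lies within the BCL3 gene in the RefSeq annotation. Their values are given for the pair and are kept out of the counts over the 9 genes. The values are RMA values on the log2 scale, where a difference of 1 is 2-fold, and a gene with several probe sets is represented by the one of highest mean. For all 9 genes that probe set was at or above 6.19, the median of all values, on every array, so none entered through a single condition.

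The arrays measured THP-1 cells, a line from acute monocytic leukaemia, in 4 conditions with 1 array each. The first 2 held Pam3CSK4-treated cells kept for 24 h or 12 h with platelet-like particles, the third cells treated with Pam3CSK4 alone, and the fourth resting cells. These hours are those of the source labels and descriptions, while the titles of both co-culture arrays carry slightly higher numbers. Pam3CSK4 is a synthetic lipopeptide that activates TLR2 together with TLR1. The cells that shed the particles and the duration of the treatment with Pam3CSK4 alone are not given in the sources used here, so time and particles cannot be told apart in the co-culture comparisons. With 1 array per group there is no spread between cultures and no test, and every value below is a description of these 4 arrays. The precision of the values was therefore not measured. The range over a gene's probe sets shows only how far probe sets differ on the same RNA, not a spread between cultures.

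Of 10 monocytic marker genes 8 had a probe set of their own, and 7 of the 8 were at or above the median on every array, with FCGR1A below it throughout. For GAPDH, the control signal at the 3' end exceeded that at the 5' end by 0.70 log2 at 24 h, 0.92 at 12 h, 0.59 with Pam3CSK4 and 2.16 in resting cells. For ACTB the same gap was 2.90 at 24 h, 3.17 at 12 h, 2.91 with Pam3CSK4 and 3.41 in resting cells. Both gaps were largest on the resting array, clearly for GAPDH and by less for ACTB, and second largest at 12 h. The part of RNA quality in the differences between arrays was not tested. In bulk RNA, fewer cells of a type and less RNA per cell cannot be told apart.

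Several family genes were higher together on the Pam3CSK4 array than on the resting one. Promoters of the family are shown for the sequence that the factor binds. RefSeq promoters of assembly GRCh38.p14, from 250 bases before to 50 bases after each gene start, matched 8 of the 10 genes, with 14 promoters among them. RELB and NFKBIE, both more than 2-fold higher with Pam3CSK4, had no promoter there. NFKB2, REL and NFKBIB, under 2-fold on their representing probe sets, are among those shown. The 14 promoters were searched on both strands for the kappa B consensus, the general 10-base NF-kB binding motif. A match was found in 9 of the 14 promoters and in 7 of the 8 genes, against 3956 of 35116 promoters in the whole table (11.3%) and 3619 of 27305 genes (13.3%). Matches that overlap, or read the same stretch on both strands, were counted as 1 stretch. The whole NFKBIA promoter is printed first because this gene is the standard feedback target. Shorter stretches around the matches of other members follow, with the matched bases in capitals.

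NFKBIA, chr14:35404700-35404999, minus strand: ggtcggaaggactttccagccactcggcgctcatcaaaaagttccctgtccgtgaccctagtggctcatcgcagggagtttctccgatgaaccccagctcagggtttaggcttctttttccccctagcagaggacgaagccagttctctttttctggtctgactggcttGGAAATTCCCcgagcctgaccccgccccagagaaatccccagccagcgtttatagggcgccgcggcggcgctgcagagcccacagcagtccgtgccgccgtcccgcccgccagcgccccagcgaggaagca
NFKB1, chr4:102501285-102501344, plus strand: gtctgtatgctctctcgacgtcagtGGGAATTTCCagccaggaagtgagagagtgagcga
NFKB2, chr10:102394446-102394534, plus strand: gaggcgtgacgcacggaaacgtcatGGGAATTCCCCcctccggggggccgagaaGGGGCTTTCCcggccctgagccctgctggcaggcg
REL, chr2:60881502-60881562, plus strand: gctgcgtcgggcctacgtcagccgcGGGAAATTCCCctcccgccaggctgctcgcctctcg
NFKBIZ, chr3:101827742-101827801, plus strand: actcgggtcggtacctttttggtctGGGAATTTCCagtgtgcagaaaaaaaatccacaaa
BCL3, chr19:44748685-44748744, plus strand: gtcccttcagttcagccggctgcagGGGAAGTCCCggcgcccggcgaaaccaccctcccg
NFKBIB, chr19:38899916-38900018, plus strand: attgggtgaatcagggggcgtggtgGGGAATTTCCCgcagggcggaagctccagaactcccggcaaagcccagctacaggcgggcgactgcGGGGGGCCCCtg

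The match found in most members, GGGAATTTCC, occurred, on one strand or the other, in 1 promoter each of NFKB1, REL, NFKBIA, NFKBIB and NFKBIZ, and in 51 of the 35116 promoters in the table (0.145%). It was singled out after the matches were seen. It began 49 bases before the gene start in NFKB1, 81 in NFKBIA and 223 in NFKBIZ. NFKB2 held 2 matched stretches in the promoter shown and 2 in another of its 3 promoters. The 2 RELA promoters held no match, which says only that these letters are not in those windows. NFKBIB is shown because it holds the same decamer while its values, given below, differed little between the arrays. A match is a description of the sequence and not a measured binding site.

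Among the subunits, RELB and NFKB1 were higher with Pam3CSK4 than in resting cells by more than 2-fold, NFKB2 and REL by less, and RELA by little. RELB, the activating partner in the alternative pathway, measured 8.84 log2 at 24 h, 9.10 at 12 h, 9.03 with Pam3CSK4 and 6.40 in resting cells. The 3 treated arrays lay close together, far above the resting one. The Pam3CSK4 value was 6.20-fold above the resting value, a difference of 2.63 log2, on the 1 probe set of this gene. The resting value was close to the median of all values, so the size of this difference may depend on background. NFKB1, which encodes the precursor of the p50 subunit, measured 9.82 at 24 h, 10.50 at 12 h, 9.998 with Pam3CSK4 and 8.45 in resting cells. Its difference between Pam3CSK4 and resting cells was 1.54, or 2.92-fold, and its highest value was at 12 h.

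NFKB2 encodes the precursor of the p52 subunit, and its probe sets did not give the same size of difference. The representing probe set, 209636_at, measured 7.19 at 24 h, 7.43 at 12 h, 7.28 with Pam3CSK4 and 6.40 in resting cells, a difference of 0.88 between Pam3CSK4 and resting cells. A second, 207535_s_at, measured 7.36 at 24 h, 7.43 at 12 h, 7.44 with Pam3CSK4 and 5.03 in resting cells, a difference of 2.41. Both placed the resting array lowest. The resting value of the second probe set was under the median of all values, so the size of its difference depends on background. That of the representing probe set was close to the median. The third, 211524_at, stayed between 3.77 and 4.19 on the 4 arrays, below the median on each.

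REL encodes c-Rel, an activating subunit abundant in blood cells, and has 5 probe sets. The representing one measured 9.43 at 24 h, 10.10 at 12 h, 9.53 with Pam3CSK4 and 8.68 in resting cells. The order resembled that of NFKB1, with 12 h highest and resting lowest. Over the 5 probe sets the difference between Pam3CSK4 and resting cells ran from 0.10 to 0.85, all positive and all under 2-fold. The lowest came from a probe set below the median on every array.

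RELA, which encodes the p65 subunit of the classical dimer, was the flattest of the subunits on its representing probe set. It measured 9.49 at 24 h, 9.55 at 12 h, 9.52 with Pam3CSK4 and 9.31 in resting cells, a difference of 0.21 between Pam3CSK4 and resting cells. Its other probe set gave 0.74, from 8.20 with Pam3CSK4 and 7.46 in resting cells. Neither reached 2-fold.

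**Figure D1:**
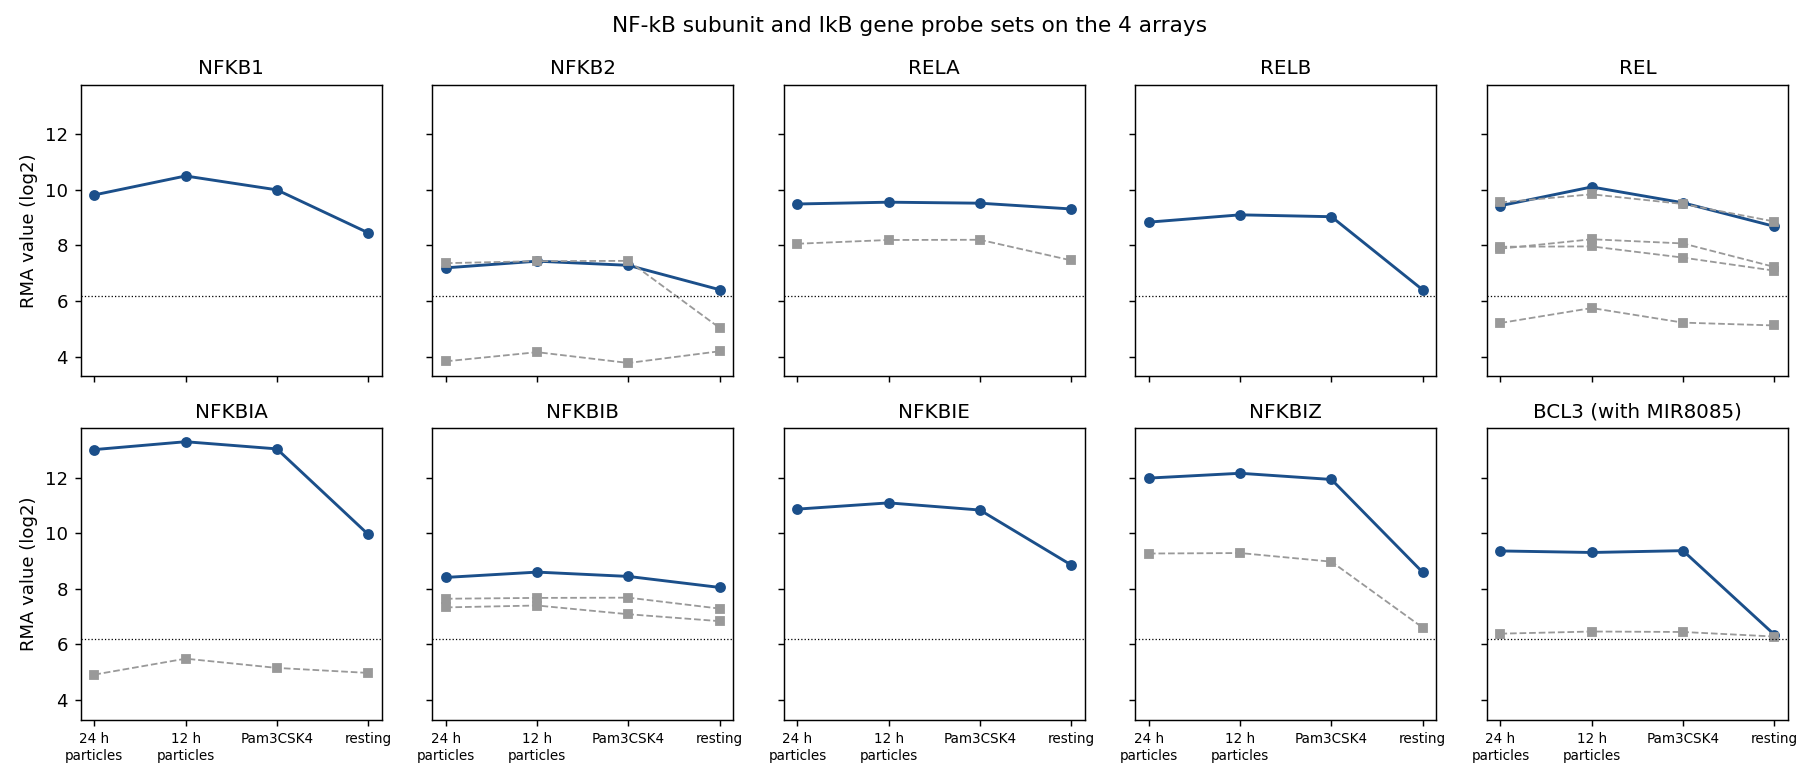
Log2 RMA values (vertical axis) of every probe set of the 10 genes on the 4 arrays (horizontal axis). Blue circles are the probe set of highest mean, grey squares the other probe sets, and the dotted line is the median of all values, 6.19. NFKBIA, NFKBIE, NFKBIZ, RELB and the BCL3 pair show a step between the Pam3CSK4 and resting arrays and small differences among the 3 treated arrays.

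The inhibitor genes NFKBIA, NFKBIE and NFKBIZ were 3.93-fold to 10.1-fold higher with Pam3CSK4 than in resting cells, while NFKBIB differed by 0.40 log2. NFKBIA, which encodes IkB alpha, the inhibitor resynthesised most rapidly after pathway activation, measured 13.01 at 24 h, 13.30 at 12 h, 13.04 with Pam3CSK4 and 9.97 in resting cells. The difference between Pam3CSK4 and resting cells was 3.07, or 8.42-fold. The treated arrays lay close together, with 24 h minus 12 h at -0.28, and apart from the resting array. A second NFKBIA probe set, 231699_at, was below the median on all 4 arrays, between 4.92 and 5.49, and differed by 0.18.

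NFKBIE, which encodes the cytoplasmic inhibitor IkB epsilon, measured 10.87 at 24 h, 11.10 at 12 h, 10.84 with Pam3CSK4 and 8.86 in resting cells on its 1 probe set. The difference between Pam3CSK4 and resting cells was 1.98. NFKBIB, which encodes the cytoplasmic inhibitor IkB beta, measured 8.41 at 24 h, 8.60 at 12 h, 8.45 with Pam3CSK4 and 8.05 in resting cells. Its 3 probe sets differed by 0.25 to 0.40 between Pam3CSK4 and resting cells, all positive and all under 2-fold. NFKBIB thus resembled RELA, and not the other inhibitors, in the size of its difference.

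NFKBIZ, which encodes the nuclear protein IkB zeta needed for a second wave of target genes, had the largest difference of the family. It measured 11.99 at 24 h, 12.16 at 12 h, 11.94 with Pam3CSK4 and 8.60 in resting cells, a difference of 3.34 between Pam3CSK4 and resting cells. Its other probe set gave 2.37, from 8.98 with Pam3CSK4 and 6.61 in resting cells. Both were above the median on every array and placed the resting array far below the others.

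The 2 probe sets shared by BCL3, which encodes another nuclear IkB protein, and MIR8085 differed from each other. On 204908_s_at the pair measured 9.37 at 24 h, 9.31 at 12 h, 9.38 with Pam3CSK4 and 6.36 in resting cells, a difference of 3.02 between Pam3CSK4 and resting cells. On 204907_s_at it measured 6.39 at 24 h, 6.47 at 12 h, 6.45 with Pam3CSK4 and 6.29 in resting cells, a difference of 0.16. The second probe set was close to the median of all values on each array. The first was close to it in resting cells, so the size of its difference may depend on background.

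Over the 9 genes, 5 were at least 2-fold higher with Pam3CSK4 than in resting cells and 0 were lower, where 4.14% of the 13410 genes that reached the median on at least 1 array were higher and 1.71% lower. The 5 were NFKB1, RELB, NFKBIA, NFKBIE and NFKBIZ. All 9 differences were positive, with a median of 1.54, against 42.2% positive and a median of -0.047 over the 13410 genes. Of the 20 probe sets 19 were positive, and the exception was the low NFKB2 probe set, at -0.42. Ordered from the highest difference down, NFKBIZ had rank 63 of the 13410 genes, NFKBIA rank 77, RELB rank 110, NFKBIE rank 200 and NFKB1 rank 326. RELA had rank 2552 and NFKBIB rank 1527.

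**Figure D2:**
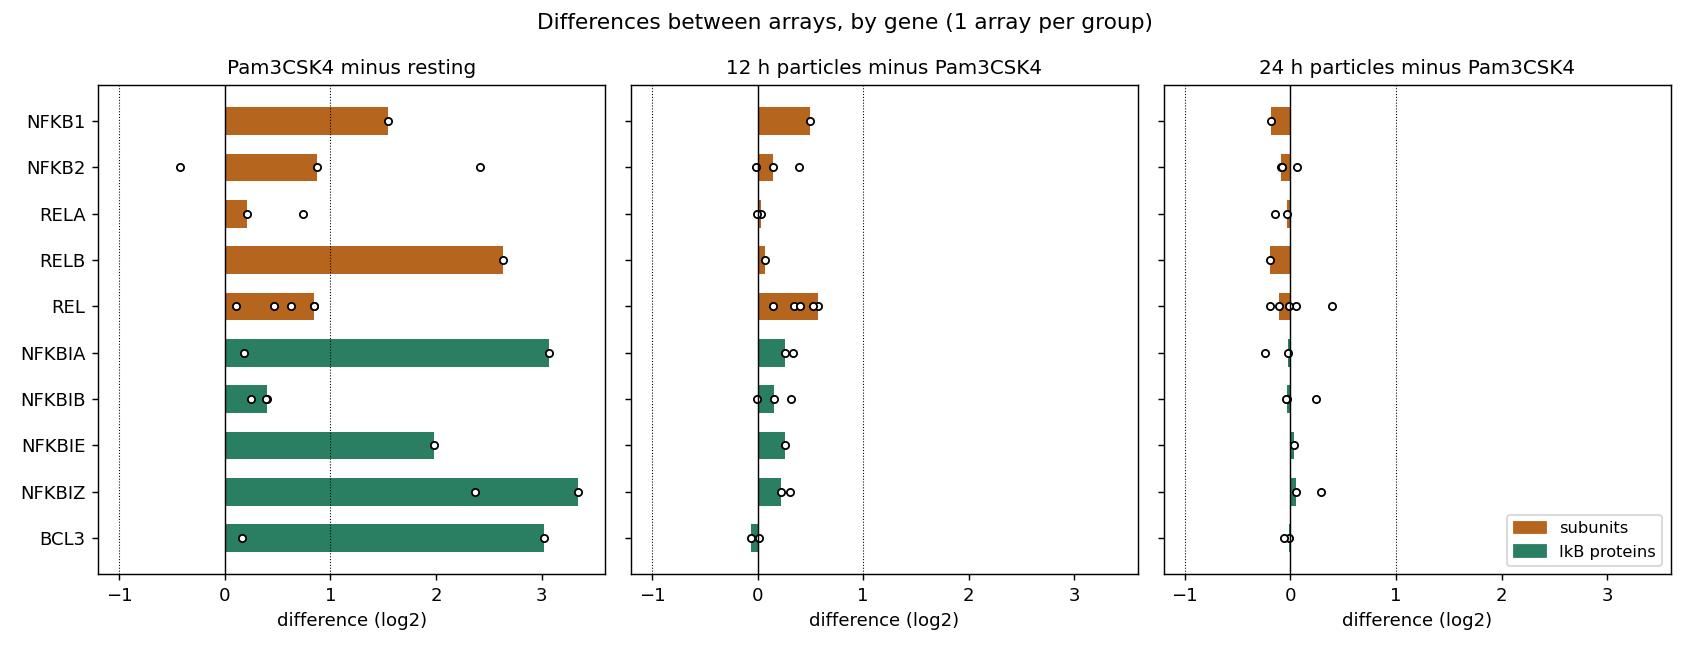
Log2 differences between arrays (horizontal axis) for the 10 genes, with bars for the probe set of highest mean and open circles for every probe set. Dotted lines mark 2-fold, brown bars are subunits and green bars IkB proteins. The left panel holds the differences past 2-fold, and in the other panels no bar passes 0.57 in size.

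After 12 h with the particles, all 9 genes were above their Pam3CSK4 value, by amounts under 2-fold. The count at least 2-fold different was 0 in either direction, where 0.41% of all 13410 genes were higher and 0.35% lower. The differences ran from 0.036 for RELA to 0.57 for REL with a median of 0.22, against a median of -0.049 over the 13410 genes, of which 41.1% were positive. REL and NFKB1 stood highest, at 0.57 and 0.50, which were 1.48-fold and 1.41-fold. They had ranks 269 and 373 of 13410, and the upper 2.5% of all genes began at 0.52, between them.

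On their representing probe sets NFKBIA, NFKBIB, NFKBIE and NFKBIZ formed a narrow band at 12 h. NFKBIA and NFKBIE each differed by 0.26 from Pam3CSK4 alone, NFKBIZ by 0.22 and NFKBIB by 0.16. RELB, at 0.067, and NFKB2, at 0.15, were lower in the order than these, and the BCL3 pair differed by -0.066. Over all 20 probe sets 17 were positive. The 3 others, 1 each of NFKB2, RELA and NFKBIB, differed by -0.010 to -0.0075. The REL probe sets ranged from 0.15 to 0.57, all positive. Those of NFKBIB ranged from -0.0089 to 0.31, of NFKBIA from 0.26 to 0.33 and of NFKBIZ from 0.22 to 0.31.

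After 24 h with the particles the family was near its Pam3CSK4 level. The count at least 2-fold different was again 0, where 0.0298% of all genes were higher and 0% lower. The differences from Pam3CSK4 ran from -0.20 for RELB to 0.050 for NFKBIZ, and 7 of the 9 were negative, against 52.1% of all genes. All 5 subunits were slightly below their Pam3CSK4 value, NFKB1 by -0.18, while NFKBIE and NFKBIZ, at 0.033 and 0.050, were slightly above. These values are small beside the differences between probe sets of 1 gene. The 5 REL probe sets ran from -0.19 to 0.39 and the 3 of NFKBIB from -0.039 to 0.25.

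Set directly against the 12 h array, the 24 h array was lower for all 9 genes and for all 20 probe sets, where 42.1% of all 13410 genes were lower. None was at least 2-fold different, with 0.343% of all genes higher and 0.224% lower by that much. The differences ran from -0.68 to -0.065 with a median of -0.24, against a median of 0.044 over all genes. NFKB1, at -0.68, and REL, at -0.67, stood lowest, and 0.87% and 0.90% of all genes had a lower difference than each. NFKBIA followed at -0.28, RELB at -0.26 and NFKB2 at -0.24. RELA was nearest to 0, at -0.065, and the BCL3 pair differed by 0.056. This comparison shares the 12 h array with that of 12 h against Pam3CSK4, so a 12 h value that is high for any reason moves both. It shares the 24 h array with that of 24 h against Pam3CSK4, and those comparisons share the Pam3CSK4 array.

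**Figure D3:**
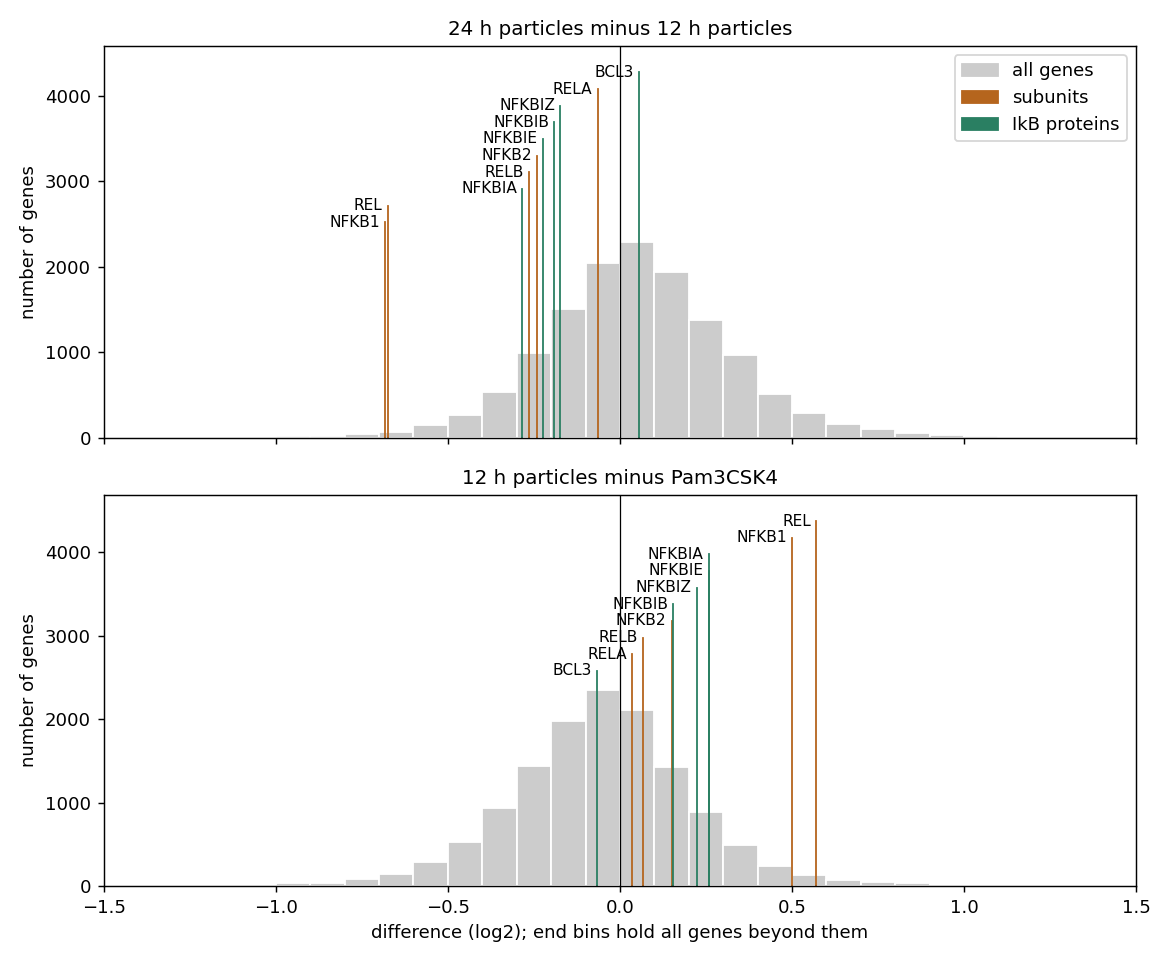
Number of genes (vertical axis, 13410 in all) by log2 difference (horizontal axis) between 24 h and 12 h with particles, above, and between 12 h with particles and Pam3CSK4 alone, below. Lines mark the family genes, with line height used only to separate the names. REL and NFKB1 stand apart from the others of the family in both panels.

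Genes of other cell types were read as well, and among them the fetal globin pair and HBE1 were higher with the co-culture. Megakaryocyte and platelet markers, 12 of 14 with a probe set of their own, had a summed level of 9.95 log2 at 24 h, 10.14 at 12 h, 9.81 with Pam3CSK4 and 9.89 in resting cells. Of the 12, 6 reached the median at 24 h, 7 at 12 h, 6 with Pam3CSK4 and 7 in resting cells, and 0 of them differed 2-fold between either co-culture and the Pam3CSK4 array. At 12 h 9 of the 12 were above their Pam3CSK4 value, with a median difference of 0.28. Over all 13410 genes 41.1% were above it, with a median of -0.049. Between Pam3CSK4 and resting cells the median of the 12 was -0.15. The platelet factor genes PF4 and PPBP were below the median on every array. The 3 probe sets of the fetal globin pair HBG1 and HBG2 measured 9.95 to 10.30 at 24 h and 9.20 to 9.39 at 12 h, against 5.29 to 6.57 with Pam3CSK4. Of the erythroid markers with a probe set of their own, 6 of 12, the summed level was 9.003 at 24 h, 8.95 at 12 h, 8.61 with Pam3CSK4 and 8.60 in resting cells. Among them the embryonic globin gene HBE1 measured 7.504 at 24 h, 6.30 at 12 h, 5.45 with Pam3CSK4 and 5.42 in resting cells, past 2-fold at 24 h against both Pam3CSK4 and 12 h. ALAS2, EPB42 and KLF1 were below the median throughout. The summed monocytic level was 14.47 at 24 h, 14.02 at 12 h, 14.43 with Pam3CSK4 and 14.05 in resting cells. At 12 h 7 of the 8 monocytic genes were below their Pam3CSK4 value, beside 58.7% of all genes. Their median difference was -0.35, and CSF1R was above its Pam3CSK4 value by 0.33. CD14 differed by -1.18 and MNDA by -1.16 at 12 h against Pam3CSK4, and both were past 2-fold higher at 24 h than at 12 h, by 1.38 and 1.12. Between Pam3CSK4 and resting cells CD14 differed by 2.40, ITGAM by 2.20 and MNDA by -1.14. The summed lymphocyte level, over 6 of 7 genes, was 10.46 at 24 h, 10.12 at 12 h, 10.39 with Pam3CSK4 and 9.88 in resting cells. NKG7 carried most of that sum and differed by -0.46 at 12 h against Pam3CSK4, while the 5 others were above 0 and the median over the 6 was 0.13. The part of these cell type signals in the values of the NF-kB genes was not tested.

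The rest of the pathway was followed with lists chosen for their roles, with earlier results of these data known. Of 11 kinases and kinase adaptors, 1 was at least 2-fold higher with Pam3CSK4 than in resting cells, and the median was 0.23. Over all 13410 genes 4.14% were higher and 1.71% lower by that much in this comparison, and at 12 h against Pam3CSK4 0.41% and 0.35%. The kinase past 2-fold on its representing probe set was IKBKE, a kinase related to the IkB kinases. It measured 10.03 with Pam3CSK4 and 8.53 in resting cells, a difference of 1.503. MAP3K8 differed by 0.52 on its representing probe set, under the median in resting cells, and by 1.69 on its other. CHUK and IKBKB, the catalytic IkB kinases, differed by 0.28 and 0.18, IKBKG, their regulatory partner, by 0.35, and MAP3K14, the kinase of the alternative pathway, by 0.23. At 12 h 1 of the 11 was at least 2-fold above Pam3CSK4, MAP3K8, whose product is held by the NFKB1 precursor protein, at 1.18 with 0.53 on its other probe set. The median of the 11 was then -0.051, beside -0.049 over all genes, and 0 at 24 h. The 5 components of the ubiquitin ligase that degrades IkB proteins included 0 genes past 2-fold in any of these comparisons.

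Among 12 ubiquitin editors and brakes, 3 were at least 2-fold higher with Pam3CSK4 than in resting cells and 0 lower, beside 4.14% and 1.71% of all genes, with a median of -0.0027. TNFAIP3, a deubiquitinase that limits the pathway, differed by 2.97, and its partner TNIP1 by 1.42, with 0.31 on its other probe set. CYLD, another deubiquitinase, differed by 1.87, with 0.12 to 1.87 over its 5 probe sets that reached the median. At 12 h and at 24 h 0 of the 12 differed 2-fold from Pam3CSK4. Of 10 receptors and TRAF adaptors linked to the alternative pathway, 2 were at least 2-fold higher with Pam3CSK4, beside the same 4.14% of all genes. These were TNFRSF1B, a TNF receptor, at 1.99 and CD40 at 1.01. None of the 10 differed 2-fold from Pam3CSK4 at 12 h or 24 h.

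NF-kB target genes were listed with earlier results of these data known, so their counts are a description. Of 30 listed, 28 had a probe set of their own, 26 reached the median on at least 1 array, and the 28 had a median difference of 2.45 between Pam3CSK4 and resting cells, with 22 past 2-fold upward and 0 downward, beside 4.14% and 1.71% of all genes. Of the 28, IL12B and PTGS2 stayed under the median on every array, while the shares are over genes that reached it. PTGS2, at 1.04, is among the 22. Of the 22, 11 were under the median in resting cells, so the size of their differences depends on background. The largest were those of the cytokine subunit gene EBI3 at 6.18, MMP9 at 5.94, CCL2 at 5.78 and CCL4 at 5.16. At 12 h 10 of the 28 were at least 2-fold above Pam3CSK4, with a median of 0.68, beside 0.41% of all genes. The neutrophil attractants led among those above the median, with CXCL8 at 1.79, CXCL2 at 1.78 and CXCL1 at 1.53. IL12B differed by 1.95 but stayed under the median on every array. At 24 h 0 of the 28 differed 2-fold from Pam3CSK4, with a median of 0.079.

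**Figure D4:**
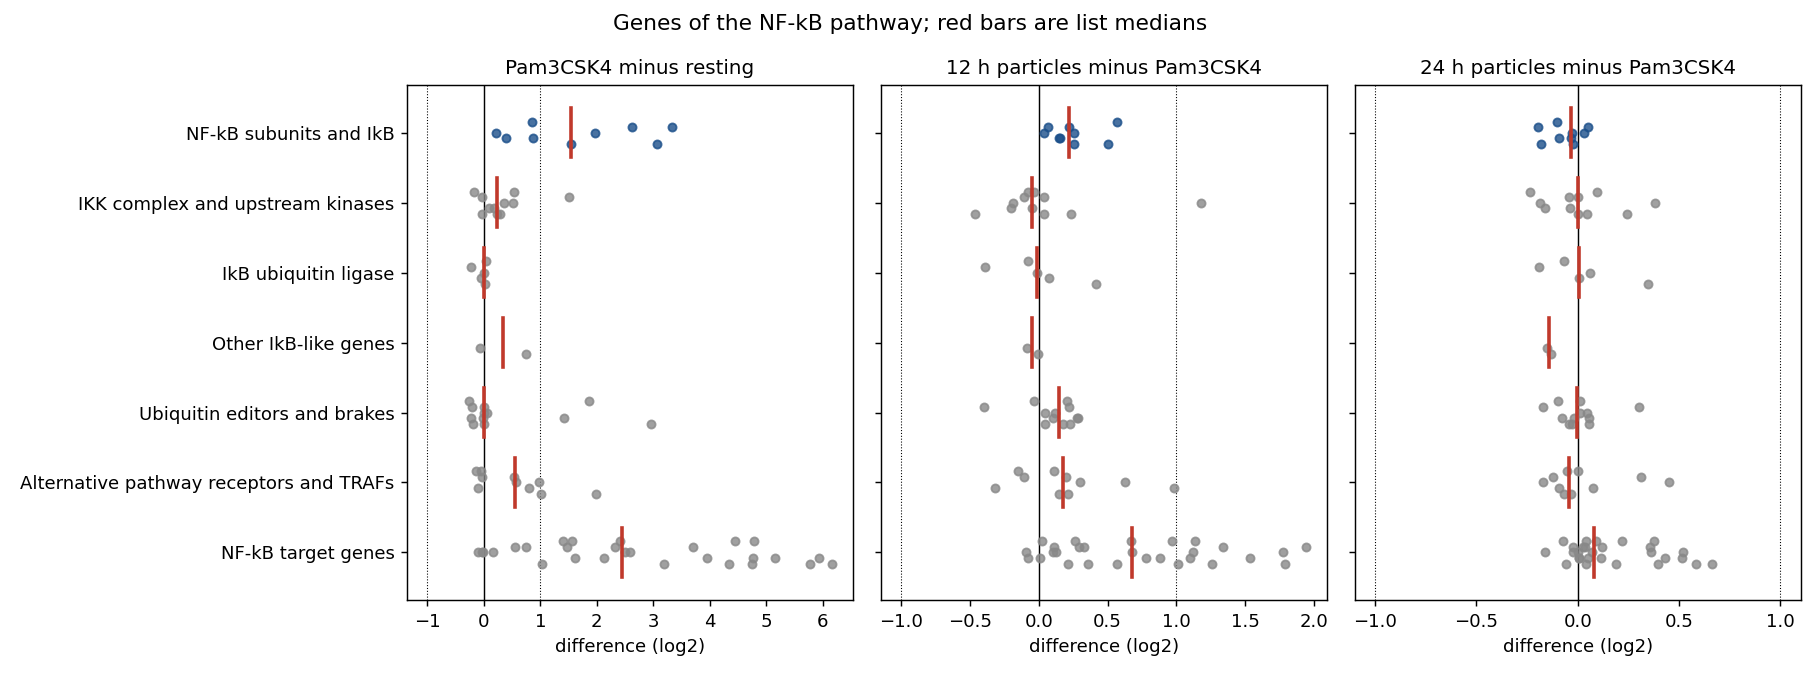
Log2 differences between arrays (horizontal axis) for the 9 NF-kB and IkB genes, in blue, and for 6 pathway lists, in grey, with the median of each as a red bar. Dotted lines mark 2-fold, and the panels have different scales. The target genes reach 6.18 in the left panel and 1.95 in the middle one.

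Genes with a profile like that of a member were found by the root mean square distance between log2 profiles over the 4 arrays, each centred on its own mean, among the genes that reached the median. For NFKBIZ the nearest were P2RX7, a receptor for extracellular ATP, at a distance of 0.033 log2, and the cytokine gene TNF at 0.065. TNF differed by 3.19 between Pam3CSK4 and resting cells and by 0.22 at 12 h, against 3.34 and 0.22 for NFKBIZ. For NFKBIA they were PLA2G4C, a phospholipase gene, at 0.040 and the sugar transporter gene SLC2A6 at 0.056. GAPT and LPAR6 were nearest to NFKBIE, at 0.027 and 0.031, and YIPF6 and the co-stimulator gene CD86 nearest to NFKBIB, at 0.011 and 0.014.

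For the subunits the nearest genes to NFKB1 were LOC100505498 at 0.035 and the ubiquitin ligase gene RNF213 at 0.046. Those nearest to REL were PLEKHO2 at 0.039 and SLC41A2 at 0.053. SLC41A2 reached the median only at 12 h, at 6.25, the array where REL was highest. RNF213 differed by 1.47 between Pam3CSK4 and resting cells and by 0.62 at 12 h, against 1.54 and 0.50 for NFKB1. HS6ST1 and BTG3, at 0.021 and 0.022, were nearest to NFKB2, and the transcription factor gene ETV5 and IDO2, at 0.088 and 0.093, to RELB. ANGEL1 and VPS11 were nearest to RELA, at 0.0020 and 0.0044, in a region of nearly flat profiles. ITGA1 at 0.040 and FSD1L at 0.050 were nearest to the BCL3 pair. With 4 arrays, most of a profile is the step between resting and treated cells, and likeness here says no more than that.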

How the data were processed

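Per the labels' protocols, biotin-labelled amplified RNA from 4 THP-1 samples was put on Affymetrix arrays. The authors deposited RMA values on the log2 scale, made with affy 1.28.1 per the submitters' processing notes. The array medians were close but not equal, at 6.17 at 24 h, 6.22 at 12 h, 6.18 with Pam3CSK4 and 6.19 in resting cells. Groups came from the source labels, and no per-sample column was left out. The platform annotation named 1 gene for 41091 of 54675 probe sets, several for 1801 and none for 11721, with 62 controls set aside. Gene IDs of all 9 members named alone matched RefSeq of GRCh38.p14 with the same symbol. With 1 array per group there is no test. Differences are log2 values subtracted, and shares of all genes are over the 13410 at or above the overall median on 1 array or more. Text names all 10 members and, per pathway list, the genes past 2-fold, or the 4 largest where more passed, the IkB kinase genes, and the 2 nearest profiles per member. The probe sets shared by BCL3 and MIR8085 are reported as a pair. The members and lists were chosen with earlier results of these data known. The values themselves were left as given. The counting was tested on simulated data. Alternatives were the filter, the probe set rule, cyclic loess (limma 3.58.1, R 4.3.3, 3 iterations) and the fold threshold. Python 3.11.15, numpy 2.4.6, pandas 2.3.3 and matplotlib 3.10.9 were used.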

Additional observations from a re-analysis of the deposited data

Results flagged for a closer look

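For 7 of the genes the differences from Pam3CSK4 had opposite signs at 12 h and 24 h, positive at 12 h and negative at 24 h. Over all 13410 genes 41.1% were positive at 12 h and 52.1% negative at 24 h, and the share with both was not computed. At 24 h RELA, NFKBIA and NFKBIB differed by only -0.028, -0.026 and -0.036. With probe sets averaged, REL and NFKBIB were positive at 24 h, at 0.028 and 0.057. The 24 h value minus the 12 h value was -0.68 for NFKB1, -0.24 for NFKB2, -0.065 for RELA, -0.26 for RELB, -0.67 for REL, -0.28 for NFKBIA and -0.19 for NFKBIB. The difference between the times was not tested, since each time is 1 array and any change of sign meets this criterion. Both differences share the Pam3CSK4 array.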

How the results depend on the processing

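A gene's value was taken to hold where it kept its sign and its side of 2-fold. Of 136 gene values recomputed, 126 held, 10 did not, and 0 of the differences past 2-fold changed sign. NFKB1, RELB and NFKBIE have 1 probe set each, so the alternatives in the probe set rule could not change their values. For NFKB2 and REL, leaving out _x_at and _s_at probe sets could not do so either. The 126 include these values. Without probe sets ending in _x_at or _s_at, 7 genes were left. Their median difference between Pam3CSK4 and resting cells was 0.88 in place of 1.54, and 3 genes in place of 5 were at least 2-fold higher. Over all genes 433 in place of 555 were higher by that much, on a set of genes that changed with this rule. Under this rule NFKBIZ and RELA had no value, and NFKBIA rested on its low probe set, at 0.18. Taking for each gene the probe set with the smallest difference, an alternative chosen after seeing the data, gave a median of 0.25, NFKB2 at -0.42 and 3 of 9 genes below 0 at 12 h. Cyclic loess gave a median of 1.58. The median difference of 24 h from 12 h stayed negative in every alternative run, from -0.32 with cyclic loess to -0.073 with the smallest difference, against -0.24. No gene of the 9 passed 2-fold in co-culture under these alternatives. At 1.5-fold 2 of the 9, NFKB1 and REL, were lower at 24 h than at 12 h, beside 185 of all 13410 genes. By the same threshold 0 of the 9 were higher, beside 421 of all 13410 genes. At 24 h against Pam3CSK4, REL and NFKBIB changed sign with probe sets averaged, at 0.028 and 0.057, NFKBIB without _x_at and _s_at probe sets, at 0.25, and NFKB2 with the smallest difference, at 0.060. Counts over all genes moved by over 1.5 times with the threshold. Between Pam3CSK4 and resting cells 1017 genes were higher and 790 lower at 1.5-fold, and 310 and 67 at 3-fold, in place of 555 and 229. At 12 h against Pam3CSK4 they were 255 and 383, and 12 and 6, in place of 55 and 47. At 24 h against Pam3CSK4 they were 22 and 1 at 1.5-fold and 2 higher at 3-fold, in place of 4 and 0. At 24 h against 12 h they were 421 and 185, and 5 and 5, in place of 46 and 30. With probe sets averaged 26 genes were lower at 12 h, 21 higher at 24 h than at 12 h and 1 higher at 24 h than with Pam3CSK4, which was also the count with the 75th percentile as filter. The smallest difference gave 310 and 119 with Pam3CSK4, 33 and 22 at 12 h, 1 higher at 24 h, and 18 higher at 24 h than at 12 h. No paired analysis was possible because each group has 1 array. Signal over background was judged by level alone.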

Other observations

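Values of some pathway genes outside the family follow, and apart from CHUK and MAP3K8 these genes were chosen after their values were seen. CHUK, a catalytic IkB kinase gene with 1 probe set above the median, measured 8.71 at 24 h, 8.01 at 12 h, 8.47 with Pam3CSK4 and 8.19 in resting cells, so it was lowest on the 12 h array, where NFKB1 and REL were highest. MAP3K8 measured 6.98 at 24 h, 7.78 at 12 h, 6.60 with Pam3CSK4 and 6.08 in resting cells, so 24 h minus 12 h was -0.80, but -0.084 on its other probe set. TRAF1, an adaptor of TNF receptors, measured 7.60 at 24 h, 8.51 at 12 h, 7.53 with Pam3CSK4 and 6.72 in resting cells, a difference of 0.98 between 12 h and Pam3CSK4. TNFRSF11A, the receptor RANK, differed by 0.63 at 12 h and 0.45 at 24 h from a Pam3CSK4 value of 5.68, under the median. The ubiquitin ligase component BTRC differed by 0.41 at 12 h and 0.35 at 24 h on one probe set and by 0.23 and 0.084 on the other. CUL1 of the same ligase differed by -0.39 and -0.19 on one probe set and by 0.076 and 0.14 on the other. NFKBID, another nuclear IkB gene, measured 8.23 with Pam3CSK4 and 7.49 in resting cells and differed by -0.0097 at 12 h and -0.13 at 24 h.

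Of the 28 measured target genes, 5 were at least 2-fold lower at 24 h than at 12 h, beside 0.224% of all 13410 genes. The 5 were led by IL12B at -1.91, which stayed under the median, CXCL2 at -1.26, CXCL3 at -1.22 and CXCL8 at -1.202. NFKB1 and REL stood at -0.68 and -0.67. TNF, also a target, stood at -0.17, the value of NFKBIZ.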
